A study of Mus musculus with 13 samples.

Results

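Acetylcholine acts on cells through muscarinic receptors, which couple to G proteins, and nicotinic receptors, which are ion channels. The genes described here are 8 such receptor genes of the mouse: the muscarinic Chrm1, Chrm2, Chrm3 and Chrm4, and the nicotinic subunits Chrna4, Chrna5, Chrna7 and Chrnb2. They were taken by name wherever they had a row in the table of dissociated neurons or in the table of tissue spots. Earlier results of these data were known when they were chosen. All 8 had a row among the 32285 genes of the spot table. Only 6 of them had a row among the 15114 genes of the cell table, where Chrna5 and Chrna7 had none, and every gene of that table had a count in at least 10 cells.

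The neurons came from the retrosplenial cortex of wild-type B6 mice, a midline cortical area that receives hippocampal and thalamic input. They were obtained by microdissection and dissociation of acute slices, in 11 samples from 3 animals, with 765 cells in all, dissected at anterior (256 cells), medium (217 cells) and posterior (292 cells) levels. The other 2 samples were 10 µm cryosections of wild-type brain on Visium slides, with 1022 spots in the library S4 and 951 in the library S8. No treatment, sex or age was given, and cells were pooled over slices.

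In cortex, acetylcholine is released mainly by axons of the basal forebrain. The M1 and M3 receptors, products of Chrm1 and Chrm3, couple to Gq proteins, activate phospholipase C and close M-type potassium channels, which raises excitability. The M2 and M4 receptors, products of Chrm2 and Chrm4, couple to Gi and Go proteins, lower cyclic AMP and can open inwardly rectifying potassium channels, and they often serve to restrain transmitter release. The α4 and β2 subunits, from Chrna4 and Chrnb2, form the main high-affinity nicotinic receptor of the brain. The α5 subunit of Chrna5 joins some of these receptors, with a known role in layer 6 pyramidal cells of cortex, while α7 subunits of Chrna7 can form a channel by themselves.

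The 8 genes lie on 7 chromosomes, Chrm1 on chromosome 19, Chrm2 on 6, Chrm3 on 13, Chrna5 on 9, Chrna7 on 7, Chrnb2 on 3, and both Chrm4 and Chrna4 on 2. The RefSeq promoter table of assembly GRCm38.p6 matched 7 of the 8 genes, and Chrm1 had no entry. Chrm2 and Chrm4, both coding for Gi-coupled receptors, had the sharpest differences between cell classes. For each, the stretch from 250 to 101 bases before the start of its promoter entry is shown, 5′ to 3′ on the plus strand. The RefSeq span of Chrm2 begins at position 36387991, upstream of the start of its promoter entry. Capitals mark matches on either strand to any of 5 motifs searched. These were GGGCGG, the letters of a GC box, then CAGCTG, the letters of an E-box, and TATAAA, the letters of a TATA box. The remaining pair were pieces of the element bound by the repressor REST, with CAGCACC as its left piece in the search and GGACAGC as its right piece.
Chrm2, chr6:36387834-36387983: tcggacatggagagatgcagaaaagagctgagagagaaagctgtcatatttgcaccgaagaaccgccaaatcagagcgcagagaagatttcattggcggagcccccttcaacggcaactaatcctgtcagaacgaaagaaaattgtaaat
Chrm4, chr2:91921939-91922088: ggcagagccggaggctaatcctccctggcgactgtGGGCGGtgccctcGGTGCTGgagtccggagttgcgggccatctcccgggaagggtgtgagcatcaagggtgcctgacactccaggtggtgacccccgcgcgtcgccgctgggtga
The Chrm2 stretch held 46% G and C with 7 CpG, and the Chrm4 stretch 69.3% with 12 CpG, beside medians of 50.7% and 3 CpG over the same stretch of 32851 promoters. The Chrm4 stretch held 1 GC box, found in 16.7% of those promoters, and 1 left REST piece on the opposite strand, found in 3.34%. The latter therefore reads as GGTGCTG in the printed strand. Neither stretch held the E-box, the right REST piece or the TATA box, which were found in 7.52%, 3.22% and 7.29% of promoters. The Chrm2 stretch held none of the 5 motifs. Bases nearer the start were not searched, so a missing match says nothing about them. These matches describe letters and were not tested as binding sites.

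Depth differed between animals. The 11 samples of cells held between 2306470 and 15974543 counts, and the median per cell was 65843 in animal 1, 132797 in animal 2 and 185995 in animal 3. Slc17a7, the vesicular glutamate transporter of cortical excitatory neurons, had a count in 756 of 765 cells, while the inhibitory markers Gad1 and Gad2 stood at no more than 0.596 and 1.66 CPM in any of the 10 clusters, where CPM is a gene's count as parts per 1e6 of all counts of the cells summed. Cells were grouped into 10 clusters without the receptor genes or other cholinergic genes, so that these genes did not shape the clusters. Cluster 1 (197 cells) was led by Calb1, Penk and Ddit4l, cluster 2 (122 cells) by Thsd7a, Pygm and Hsd11b1 with Scnn1a and Tnnc2, and cluster 3 (93 cells) by Ptprm, Aldh1l1 and Il1rapl2. Clusters 4 (78 cells; C1ql2, Qrfpr and Reln) and 7 (63 cells; C1ql2, Nrtn and Tns1) shared the 4 layer 5 extratelencephalic markers and were tested as 1 class, called clusters 4 and 7. Cluster 5 (75 cells; Penk, Oprk1, Osr1) was layer 6 intratelencephalic-like, cluster 6 (71 cells; Rprm, Ighm, Syt6) layer 6 corticothalamic-like, and cluster 9 (11 cells; Cplx3, Moxd1, Ctgf) layer 6b-like. Cluster 8 (44 cells) shared the leading genes Calb1, Ddit4l and Penk with cluster 1 at a lower median depth of 79756.5 counts per cell, and cluster 10 (11 cells) was led by Kcnip1 and Pvalb. Clusters 8 to 10 had too few cells per animal for the tests. Markers of astrocytes summed to 11.96 CPM in cluster 2 and at most 3.65 CPM in the other clusters, those of oligodendrocytes to 45.4 to 193 CPM, and microglial and endothelial markers had no row, so that their part in the differences below was not tested.

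Each of the 6 measured genes had its own pattern across classes, and 4 of them passed the test in some class. A gene was called where edgeR's quasi-likelihood test on counts summed per animal and class gave a Benjamini-Hochberg adjusted p under 0.05 over all 13112 genes and a log2 fold change of at least 1 in either direction. Against the mean of the other classes, 12 of 36 gene and class combinations were called, 8 of them higher and 4 lower, beside 5.14% of such combinations over all genes. Of the 8 higher calls, 5 rest on classes with few or no counts, namely Chrm2 in clusters 1, 3 and 6 and Chrm3 in clusters 1 and 5. Those of Chrm2 came from classes far below cluster 5, set against a mean that holds cluster 2 with 1 count and clusters 4 and 7 with 3 counts. Cluster 1 had 2 higher and 1 lower of the 6 genes, where 4.4% of all genes were called. Cluster 2 had 2 lower against 8.3% of all genes, and cluster 3 had 1 higher against 2.0%. Clusters 4 and 7 had 1 higher and 1 lower against 4.85%, cluster 5 had 2 higher against 5.0%, and cluster 6 had 2 higher against 6.31%. In the same fit each pair of classes was also compared, and 24 of 90 gene and pair combinations were called, beside 5.16% of such combinations over all genes. The calls were 11 pairs for Chrm2, 8 for Chrna4, 5 for Chrm4 and 0 for Chrm1, Chrm3 and Chrnb2. With the adjusted p alone, 30 of the 90 passed, the further 6 all for Chrm1, beside 7.13% over all genes.

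**Figure D1:**
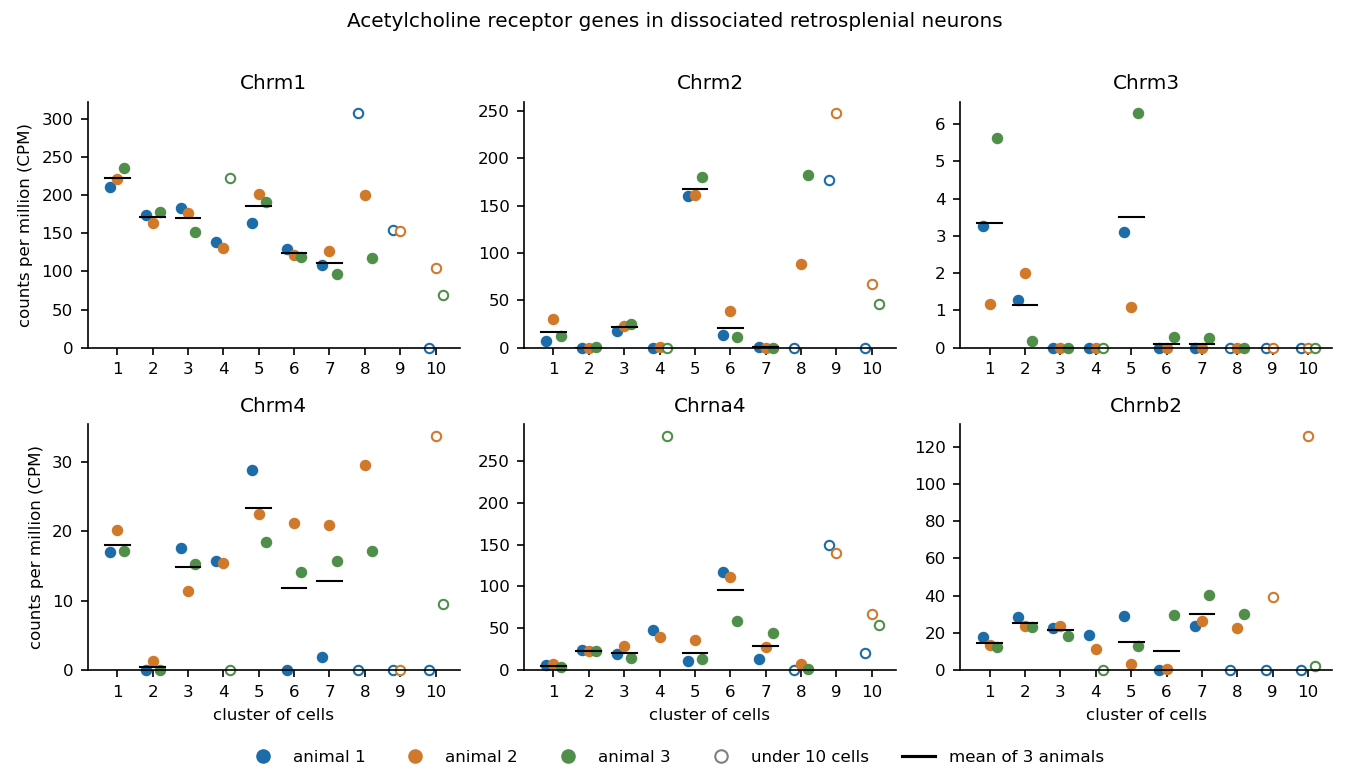
Level of each receptor gene (vertical axis, CPM; scales differ between panels) in the 10 clusters of cells (horizontal axis), with 1 point per animal, open where the animal gave under 10 cells, and a bar at the mean where 3 animals gave at least 10. Chrm2 stood above 160 CPM in all 3 animals in cluster 5 and below 1 CPM in clusters 2, 4 and 7, and Chrna4 had its highest pooled levels in clusters 9 and 6, although the lone cell of cluster 4 from animal 3 lies at 280.1 CPM.

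Chrm1 was the receptor gene seen in most neurons, with a count in 91.5% of the 765 cells and in 91.2% after each cell was thinned to 50000 counts. Over the 11 samples its level ran from 150.2 to 200.5 CPM with a median of 162. In cluster 1 it was 211, 222 and 236 CPM in animals 1, 2 and 3, a mean of 223 ± 12.2 (SD, n = 3). In cluster 6 it was 130.1, 122 and 119 CPM, a mean of 124 ± 5.52 (SD, n = 3), and in clusters 4 and 7 it was 131, 129 and 100.1 CPM, a mean of 120.2 ± 17.4 (SD, n = 3). The 3 animals of cluster 1 lay above every animal of the other classes in the test, and those of clusters 6, 4 and 7 lay below every animal of the remaining ones. Between them came cluster 5 (186 ± 20.02), cluster 2 (172 ± 7.71) and cluster 3 (171 ± 16.6 CPM; SD, n = 3 each). Of the neighbours in this order, cluster 1 and cluster 5, and cluster 3 and cluster 6, differed by more than the sum of their SDs, though neither step passed the test (adjusted p = 0.533 and 0.0846).

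Differences of Chrm1 between classes were graded rather than on or off. Cluster 1 exceeded clusters 4 and 7 by 0.91 on the log2 scale (SE 0.15, adjusted p = 0.000756) and cluster 6 by 0.87 (SE 0.15, adjusted p = 0.00136). Cluster 5 exceeded cluster 6 by 0.63 (SE 0.15, adjusted p = 0.0213). None of its 15 pairs reached a log2 fold change of 1, so none was called. The lowest share of cells with a count in any tested class was in cluster 6, at 71.8% (95% exact interval 59.9 to 81.9%), and 73.2% after thinning, while all 122 cells of cluster 2 had one.

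Chrm2 was high in 1 tested class, low in 3 and nearly uncounted in 2. In the layer 6 intratelencephalic-like cluster 5 it stood at 160.1, 162 and 179.9 CPM in animals 1, 2 and 3, a mean of 167 ± 10.97 (SD, n = 3), from 1952 counts, and 82.7% of cells had a count (83.8% after thinning). In cluster 3 it was 17.7, 22.9 and 24.7 CPM, in cluster 6 it was 13.01, 38.2 and 10.9 CPM, and in cluster 1 it was 6.53, 30.4 and 12.7 CPM. All 3 animals of cluster 5 lay above every animal of the other tested classes. Clusters 3, 6 and 1 overlapped each other, and their log2 differences of -0.54 (cluster 1 minus 3), -0.30 (1 minus 6) and 0.25 (3 minus 6) did not pass the test, with 95% intervals from the SE of -1.40 to 0.32, -1.18 to 0.59 and -0.65 to 1.14. Cluster 5 exceeded cluster 1 by 3.53 on the log2 scale, fitted as cluster 1 minus cluster 5 at -3.53 (SE 0.47, adjusted p = 0.000287). Fitted the same way, cluster 3 minus cluster 5 was -2.99 (SE 0.45, adjusted p = 0.000938), and cluster 5 exceeded cluster 6 by 3.23 (SE 0.48, adjusted p = 0.000366).

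At the other end, Chrm2 was nearly uncounted in 2 tested classes. Cluster 2 had 1 count in 122 cells, although its median depth of 192857.5 counts per cell was above that of cluster 5 (129131). Clusters 4 and 7 had 3 counts in 141 cells, 2 in cluster 4 and 1 in cluster 7. Pooled over animals, cluster 5 was 1309-fold above clusters 4 and 7, with a counting interval of 447 to 6352, and 3974-fold above cluster 2, with a counting interval of 712 to 157029. Such intervals cover counting error only, and fitted fold changes against classes with so few counts depend on the prior count and are not given. Against the mean of the other classes, the higher calls of clusters 1 and 6 were lost without animal 2 and with cells grouped by marker score (adjusted p of up to 0.206 and 0.668). The lower call of clusters 4 and 7 was lost in 4 of 11 alternatives, which were leaving out animal 3, the marker score, sums of at least 20 cells and sums per sample (adjusted p of up to 1). All of the pairs that set clusters 2 or 4 and 7 against clusters 1, 3, 5 or 6 were called, which with the 3 pairs above makes the 11 of 15.

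In cluster 1, 28 of 197 cells had a count, which is 14.2%, and the median level in those 28 cells was 127 CPM. In cluster 6, 10 of 71 cells had one, with a median of 205 CPM, and in cluster 5 the 62 cells with a count had a median of 144 CPM. These medians are over cells with a count alone, and whether a count is a read or a molecule is not given, so they do not show how evenly the RNA was shared among cells. Cluster 8, led by the same Calb1, Ddit4l and Penk as cluster 1, had a count in 22 of 44 cells, with 0, 87.9 and 182 CPM in animals 1, 2 and 3, the first from 2 cells. The layer 6b-like cluster 9 had a count in 10 of 11 cells, with 177 CPM in animal 1 and 248 CPM in animal 2, and none of its cells came from animal 3. Neither cluster entered a test.

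**Figure D2:**
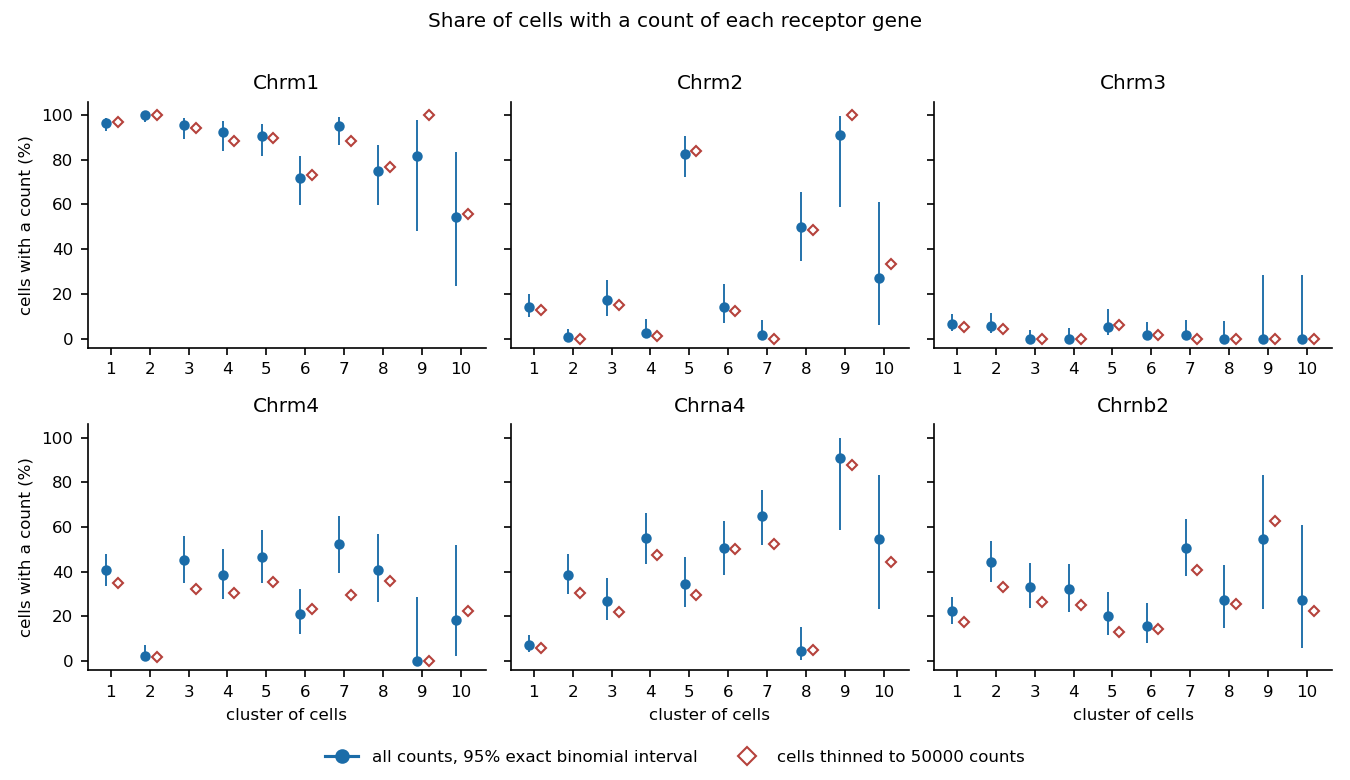
Share of cells with a count of each receptor gene (vertical axis, percent) in the 10 clusters (horizontal axis); filled points with bars give all counts with the 95% exact binomial interval, and open diamonds give cells thinned to 50000 counts. Chrm2 is at 82.7% in cluster 5 and 0.82% in cluster 2, Chrm4 at 2.46% in cluster 2, and Chrna4 at 7.11% in cluster 1.

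Chrm4, for the other Gi-coupled receptor, was spread over the neurons with 1 exception among the tested classes. It had a count in 33.7% of cells (26.8% after thinning), and in the tested classes other than cluster 2 its means ran from 11.8 ± 10.8 CPM in cluster 6 to 23.3 ± 5.24 CPM in cluster 5 (SD, n = 3 each). In cluster 2 it was 0, 1.33 and 0 CPM in animals 1, 2 and 3, from 12 counts in 3 of 122 cells. Its level in cluster 1 was 16.97, 20.2 and 17.1 CPM, in 80 of 197 cells. Cluster 2 lay below every animal of the other tested classes except animal 1 of cluster 6, which had 0 counts in 15 cells.

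Set against the average of the 5 other classes, Chrm4 fell in cluster 2 by 5.17 on the log2 scale (SE 0.97, adjusted p = 0.00126), and each of the 5 pairs with cluster 2 was called. The log2 differences of those pairs ran in size from 4.71 (cluster 2 minus cluster 6 at -4.71, adjusted p = 0.00461) to 5.71 (cluster 2 minus cluster 5 at -5.71, adjusted p = 0.00113). Pooled over animals, cluster 1 was 34.9-fold above cluster 2, with a counting interval of 19.8 to 68.0. The remaining 10 pairs were not called. In the layer 6b-like cluster 9 it had 0 counts in 11 cells, which allows a share of cells with a count of up to 28.5% and sets no limit on cells that express it.

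Chrm3 was sparse in the dissociated neurons. It had 196 counts in all, in 26 of 765 cells (3.40%, and 2.84% after thinning), and 1 cell of cluster 1 held 29.1% of the counts. Its levels were 3.26, 1.18 and 5.63 CPM in cluster 1, 3.10, 1.09 and 6.29 CPM in cluster 5, and 1.28, 1.99 and 0.17 CPM in cluster 2, for animals 1, 2 and 3. In cluster 3 it had 0 counts in 93 cells, and clusters 6, 4 and 7 together had 3. The calls of cluster 1 and cluster 5 against the other classes rested on classes near 0, and both were lost with DESeq2, with cells grouped by marker score and when any 1 of the 3 animals was left out (adjusted p of up to 0.270 and 0.297). None of the 15 pairs was called, with a smallest adjusted p of 0.0619.

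The number of muscarinic genes seen in the same cell followed these patterns. Of the 75 cells of cluster 5, 32 (42.7%) had counts of 3 of the 4 muscarinic genes, while of the 122 cells of cluster 2, 112 (91.8%) had counts of 1 alone, which is Chrm1 in a class where every cell had it. Chrm2 and Chrm4, both for Gi-coupled receptors, were counted together in 31 of 75 cells of cluster 5 (41.3%), where the product of their shares is 38.6%. In cluster 8 the share was 13 of 44 (29.5%) with a product of 20.5%, and in cluster 3 it was 5 of 93 (5.38%) with a product of 7.77%. No cell of clusters 2, 4, 7 or 9 had counts of both. These shares rise with the depth of a cell and were not tested.

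Chrna4, the nicotinic α4 subunit, was highest in a layer 6 class and lowest in cluster 1. In the layer 6 corticothalamic-like cluster 6 it stood at 117, 111 and 58.9 CPM in animals 1, 2 and 3, a mean of 95.8 ± 32.0 (SD, n = 3), and 50.7% of cells had a count (50.0% after thinning). Clusters 4 and 7 followed at 38.8, 34.0 and 50.6 CPM, a mean of 41.1 ± 8.51 (SD, n = 3). Clusters 2, 3 and 5 were close to each other at 23.1 ± 0.548, 21.0 ± 7.24 and 20.04 ± 13.6 CPM (SD, n = 3 each). Cluster 1 was lowest at 5.87, 6.93 and 3.48 CPM, a mean of 5.43 ± 1.77 (SD, n = 3), and 7.11% of its cells had a count. Every animal of cluster 6 lay above every animal of the other tested classes, and every animal of cluster 1 lay below them.

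Against the mean of the other classes Chrna4 rose in cluster 6 by 2.31 on the log2 scale (SE 0.26, adjusted p = 1.64e-05) and fell in cluster 1 by 2.66 (SE 0.38, adjusted p = 0.000181). Cluster 6 exceeded cluster 1 by 4.15 (fitted as cluster 1 minus cluster 6 at -4.15, SE 0.44, adjusted p = 1.15e-05), and the pooled counts gave a ratio of 18.4 with a counting interval of 15.2 to 22.3. All 5 pairs with cluster 1 were called, as were those of cluster 6 with clusters 2, 3 and 5. Cluster 6 and clusters 4 and 7 differed by -1.09 (clusters 4 and 7 minus 6, SE 0.39) without passing the test (adjusted p = 0.1002), although their means lay apart by more than the sum of their SDs. The higher level of clusters 4 and 7 against the mean of the others (log2 1.01, SE 0.28, adjusted p = 0.0324) was lost in 8 of 11 alternatives, among them each animal left out in turn, with an adjusted p of up to 0.644.

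Of the small clusters, the layer 6b-like cluster 9 had Chrna4 in 10 of 11 cells, at 149 CPM in animal 1 and 139.96 CPM in animal 2. Cluster 8 had it in 2 of 44 cells, like cluster 1 with which it shares its leading genes, so the pair that parted in Chrm2 were both low in Chrna4. Within clusters 4 and 7, cluster 4 stood at 48.0 and 39.4 CPM in animals 1 and 2, and its lone cell of animal 3 at 280.1 CPM. Cluster 7 stood at 13.7, 28.0 and 44.5 CPM.

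Chrnb2, for the β2 subunit that pairs with α4, differed little between classes relative to its spread. It had a count in 30.5% of cells (24.3% after thinning), and its class means ran from 10.2 ± 17.04 CPM in cluster 6 to 26.0 ± 11.4 CPM in clusters 4 and 7 (SD, n = 3 each). Within the latter class, cluster 4 stood at 19.0, 11.4 and 0 CPM in animals 1, 2 and 3, from 33, 44 and 1 cells. Cluster 7 stood at 23.5, 26.6 and 40.2 CPM, from 10, 21 and 32 cells. The part of this unequal mix in the SD of the joined class was not tested. In cluster 6 the animals gave 0, 0.71 and 29.9 CPM, and in cluster 5 they gave 28.9, 3.28 and 12.9 CPM, so single animals spanned the range of all classes. No class or pair was called, with a smallest adjusted p of 0.331 among the 15 pairs. The intervals were wide: cluster 2 minus cluster 6 was 1.49 with a 95% interval from the SE of -0.29 to 3.28, so these sums do not show that the classes are alike.

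Because the receptor needs both subunits, cells with counts of both were counted. Chrna4 and Chrnb2 were seen together in 90 of 765 cells (11.8%), where the product of their shares is 9.95%, and in 7.53% of cells after thinning. By cluster, both were seen in 21 of 63 cells of cluster 7 (33.3%), 16 of 78 of cluster 4 (20.5%) and 21 of 122 of cluster 2 (17.2%), but in 6 of 71 of cluster 6 (8.45%), the class with the highest Chrna4 level in the test. In these 4 clusters the products of the shares were 33.1%, 17.7%, 17.1% and 7.86%. In cluster 9, 6 of 11 cells had both. The median depth per cell was 219379 counts in cluster 7 and 101787 in cluster 6, and after thinning the shares of cells with both were 21.3% and 7.14%.

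None of the receptor genes passed the test for dissection level. Over all cells Chrm1 was 176, 172 and 193 CPM at the anterior level in animals 1, 2 and 3, 153, 165 and 178 CPM at the medium level, and 155, 172 and 158 CPM at the posterior level. Chrm2 was 31.0, 36.1 and 27.8 CPM at the anterior level, 34.0, 52.7 and 39.3 CPM at the medium level, and 11.3, 32.0 and 31.7 CPM at the posterior level. Within each of the 3 animals Chrm2 was higher and Chrm1 lower at the medium than at the anterior level, while at the posterior level Chrm1 was lower in animals 1 and 3 and nearly equal in animal 2, and Chrm2 was lower in animals 1 and 2 and higher in animal 3. Chrna4 was 29.6, 40.2 and 17.1 CPM at the anterior, 36.6, 26.7 and 22.7 CPM at the medium and 31.2, 29.1 and 21.5 CPM at the posterior level, with the animals crossing.

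**Figure D3:**
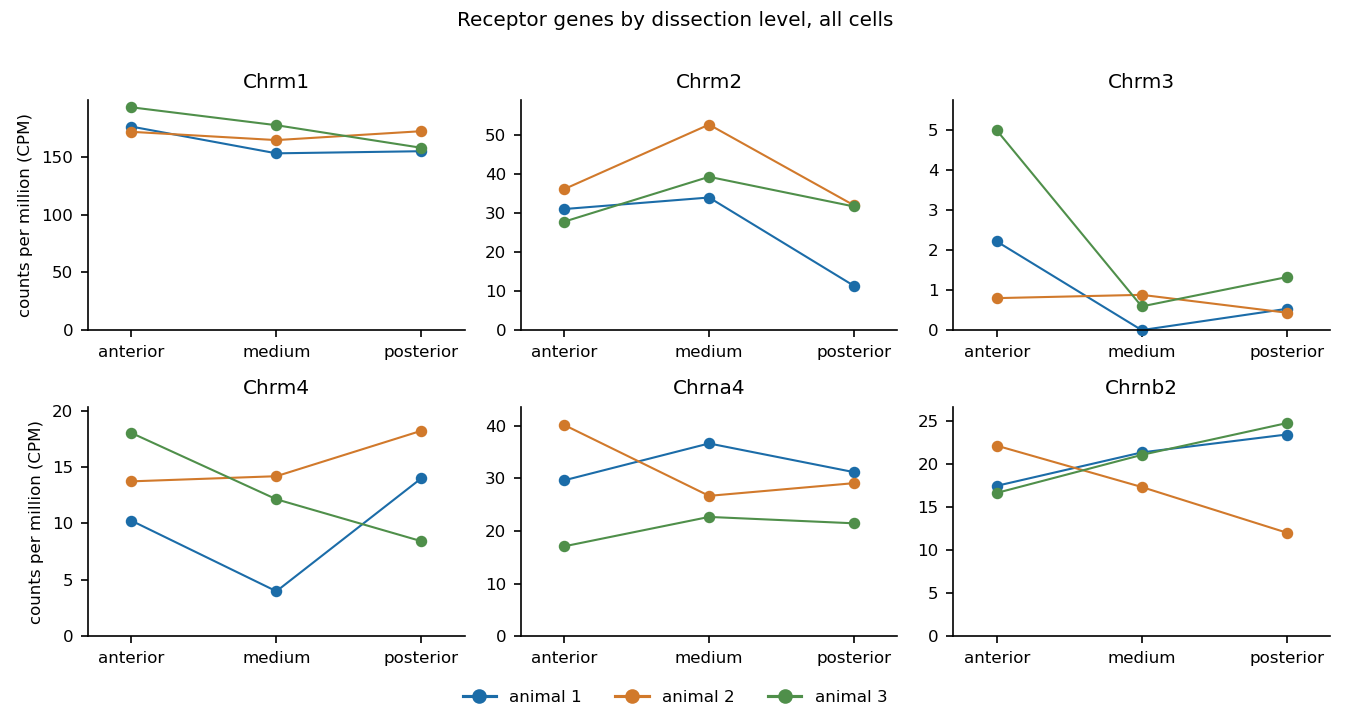
Level of each receptor gene over all cells (vertical axis, CPM; scales differ between panels) at the anterior, medium and posterior dissection levels (horizontal axis), with 1 line per animal. The values of the 3 levels overlap over the animals in every panel, with Chrm2 at 11.3 CPM in the posterior cells of animal 1 as its lowest value.

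In edgeR's test with the animal as a block, 0 of the 6 genes was called for posterior against anterior, where 14 of 13628 genes or 0.103% were called, and 0 for medium against anterior, where 0.00734% were. Both comparisons use the same anterior sums. At an unadjusted p under 0.05 the count was also 0 in both, and DESeq2 called 0. For posterior minus anterior, the log2 difference of Chrm1 was -0.17 with a 95% interval from the SE of -0.45 to 0.11, that of Chrm2 -0.43 (-1.03 to 0.18), and that of Chrna4 -0.05 (-0.57 to 0.47). The classes were unequally common between levels, since 76 of the 78 cells of cluster 4 and 7 of the 71 cells of cluster 6 were posterior. Within single classes that had at least 5 cells per animal and level, 0 of 23 tests of the receptor genes was called, beside 0.00209% of such tests over all genes, and 1 had an unadjusted p under 0.05, Chrna4 in cluster 6 at the medium level (log2 -1.93, adjusted p = 0.998). The 20 tests of a difference of the level effect between 2 classes gave no adjusted p under 0.994.

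The sections showed the same genes in place, in spots that each hold parts of several cells. Spots were grouped into 11 zones without the receptor and cholinergic genes, and 9 zones with at least 10 spots in both sections were compared, each against the mean of the others, over 10662 genes. In spots, fewer cells of a type and less RNA per cell cannot be told apart. Of the 8 genes, Chrm1, Chrm2, Chrm3, Chrna4 and Chrnb2 passed the filter on low counts. Only the spread between these 2 sections enters the test, and whether they came from separate animals is not given.

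Chrna4 was highest in zone 5, led by the layer 6 gene Foxp2 with Ighm and Gadd45a, and with the layer 6b genes Ccn2 and Cplx3 among its leading genes. There it stood at 47.2 CPM in S4 and 58.0 CPM in S8, and 33.0% of the 221 spots had a count (11.8% after thinning to 3000 counts). It was 13.1 and 12.3 CPM in zone 1, led by Robo3, Stard8 and Npnt with the superficial marker Cux2, and 15.6 and 7.98 CPM in zone 3, led by Dlk1 and Calb2. Zone 5 exceeded every other tested zone within the same section. The rise in zone 5 was 1.26 on the log2 scale (SE 0.20, adjusted p = 6.58e-06), and 1 of the 5 genes tested was called there against 3.1% of all genes. Chrna4 fell in zone 1 by 1.03 (SE 0.26, adjusted p = 0.00636) and in zone 3 by 1.11 (SE 0.30, adjusted p = 0.00685), but the first call was lost with DESeq2 and without TMM scaling and the second with DESeq2. In zone 6, led by Myl4, Scn4b and Fezf2, it was 32.0 and 52.5 CPM, with a log2 difference of 0.88 that passed the adjusted p (0.0242) but not the fold minimum.

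The 4 oligodendrocyte markers summed to 4873 and 5894 CPM in zone 5 and to 678 to 3254 CPM in the other tested zones, with none at 0. Their part in the Chrna4 result of the spots was not tested.

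**Figure D4:**
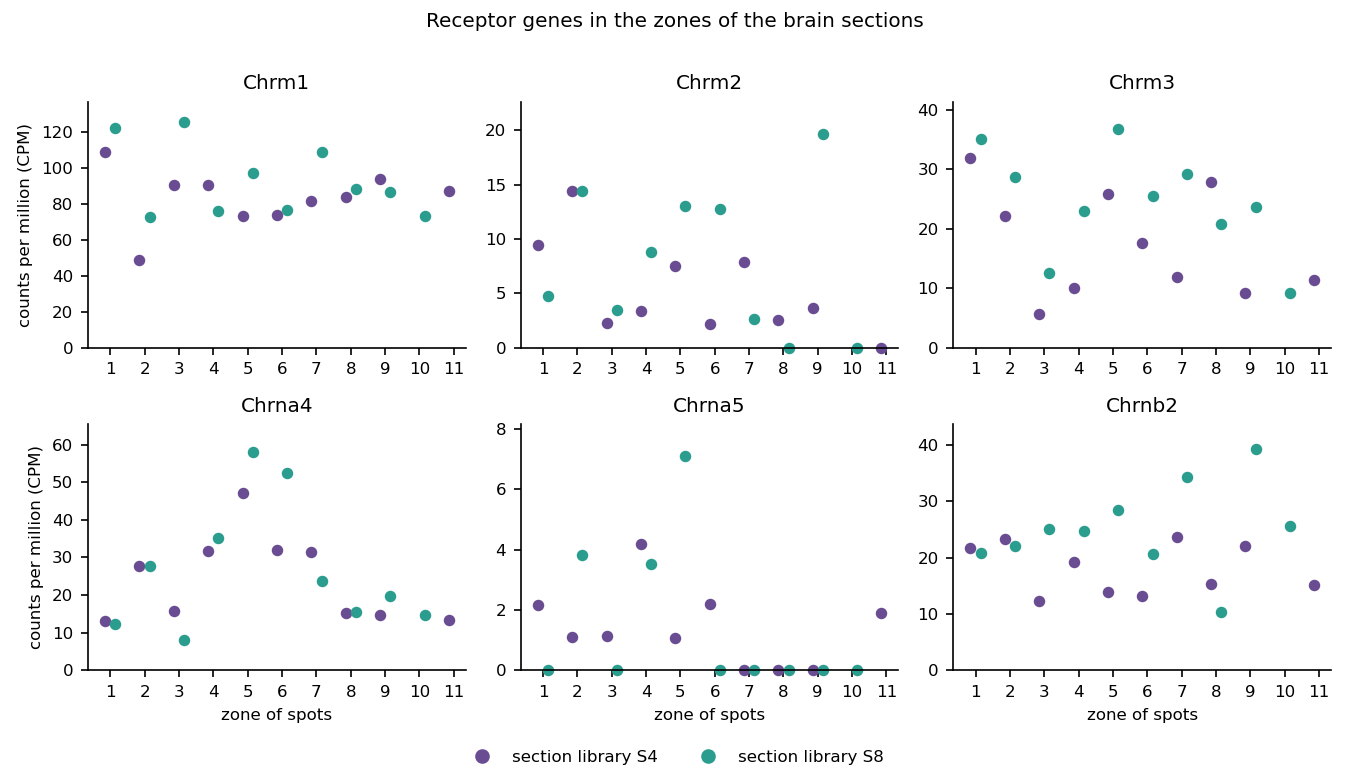
Level of 6 receptor genes (vertical axis, CPM; scales differ between panels) in the 11 zones of spots (horizontal axis), with 1 point per section library, S4 or S8; zones 10 and 11 each occur in 1 section. Chrna4 peaks in zone 5 at 47.2 and 58.0 CPM, and Chrna5, with 26 counts in all, has 0 counts in both sections in zones 7 to 9.

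Of the muscarinic genes, Chrm1 was counted in 46.2% of the 1973 spots (23.2% after thinning) and Chrm2 in 4.87% (2.10%). Chrm2 stood at 14.4 CPM in both sections in zone 2, led by Tshz2, Nrep and Slc17a6 and the retrosplenial gene Hsd11b1, from 13 and 15 counts. It was called higher there, by 1.36 on the log2 scale (SE 0.43, adjusted p = 0.0340), where 2.22% of all genes were called. That call was lost with DESeq2 and without the section block. In zone 2 the 4 oligodendrocyte markers summed to 2629 and 3254 CPM and the 4 parvalbumin cell markers to 729 and 676 CPM, where the other tested zones ran from 678 to 5894 CPM and from 295 to 730.01 CPM, with none at 0 in either list. Pvalb, 1 of the latter 4, also stood at 168 CPM in cluster 2 of the dissociated neurons, where Gad1 was at 0.344 CPM. The part of either list in the Chrm2 result of zone 2 was not tested. Chrm1 was low in the same zone at 48.8 and 72.8 CPM, the lowest value of each section among the tested zones, with a log2 difference of -0.58 (SE 0.15, adjusted p = 0.00758). In zone 1 it was 109 and 122 CPM, with a difference of 0.39 (SE 0.12, adjusted p = 0.0364). Both Chrm1 differences passed the adjusted p and not the fold minimum.

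Chrm3 was counted in 14.8% of spots (5.997% after thinning). In zone 1 it stood at 31.9 and 35.0 CPM, with a log2 difference of 0.78 (SE 0.22, adjusted p = 0.0122), and in zone 3 at 5.59 and 12.5 CPM. It fell in zone 3 by 1.31 (SE 0.34, adjusted p = 0.00409), a call lost without the section block. In zone 3, where Chrna4 also fell, the 3 meningeal markers, Dcn, Col1a2 and Igf2, summed to 175 and 84.4 CPM, with none at 0. The other tested zones ran from 7.88 to 135 CPM. Of these 3 markers, 1 led in zone 3, and Dcn is itself a leading gene of that zone. Their sum therefore does not show meningeal cells. The 3 VIP cell markers, Vip, Chat and Calb2, summed to 236 and 214 CPM there, beside 27.1 to 213 CPM, with Chat at 0. Only 1 of the 3 led in zone 3, and Calb2 is itself a leading gene of that zone, so the sum does not show VIP cells. The part of either list in these results was not tested. The summed calls of the 5 genes were 1 in zone 1, against 1.84% of all genes, and 2 in zone 3, against 5.17%. With the adjusted p alone, 9 of their 45 tests passed, beside 6.1% over all genes, and 0 of those were for Chrnb2, which ran from 10.4 to 39.4 CPM over the tested zones and sections.

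The remaining genes were at the limit of the spots. Chrna5 had 26 counts, 14 in S4 and 12 in S8, of which 7 fell in zone 4, led by Ccn2 and Nnat, 7 in zone 5 and 5 in zone 2. Chrna7 had 6 counts and Chrm4 had 5, over 1973 spots and 14825560 counts. A count of 0 in a zone allowed up to 2.18 CPM in zone 1 of S4 and up to 15.6 CPM in zone 8 of S8, so zones could not be ordered for these genes.

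Levels over all cells and over all spots lay far apart for 3 of the 6 genes. Chrm4 stood at 13.7 CPM over all cells and 0.34 CPM over all spots, which on the log2(CPM + 1) scale is a difference of spots minus cells of -3.46, and 0.28% of the 11931 genes with the same name in both tables lay lower. Chrm2 stood at 34.1 CPM over cells and 6.95 CPM over spots, a difference of -2.14, with 1.78% of genes lower. Chrm3 went the other way, at 1.69 CPM over cells and 21.3 CPM over spots, a difference of 3.05, with 2.94% of genes higher. Chrna4 was 26.4 and 26.2 CPM and Chrnb2 19.7 and 21.0 CPM. The median difference over all genes was -0.14. The tables come from different assays, tissues of different extent and, per the submitters' processing notes, different lists of builds, and the part of each was not tested.

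Around the receptors, 52 other genes of acetylcholine handling and signalling were followed by their counts of calls. Of 8 genes for synthesis, storage and breakdown, 2 had a row in the cell table and both were tested. Ache, for acetylcholinesterase, was called lower in cluster 1, at 14.9 ± 3.45 CPM against 22.2 to 52.7 CPM in the other class means (log2 -1.24, SE 0.25, adjusted p = 0.00446). Between pairs, cluster 1 was called below clusters 2 and 3 and below clusters 4 and 7, but not below clusters 5 or 6. Of 13 other receptor subunits, 2 were tested, and the calls of Chrnb3 in cluster 1 and Chrna1 in cluster 2 came from genes with 105 and 135 counts in all. Over all spots Chat and Slc18a3, which mark neurons that make acetylcholine, had 1 count each, and Slc5a7 had 13.

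Of 10 chaperones and Ly6 proteins that act on nicotinic receptors, 8 were tested, with 3 higher and 2 lower calls in 48 tests, in Lypd1 and Lypd6b, beside the 5.14% over all genes. Lypd1, a Ly6 protein reported to bind and dampen nicotinic receptors, reached 701 ± 68.1 CPM in clusters 4 and 7 and only 2.10 ± 1.44 CPM in cluster 5 (log2 4.20, SE 0.27, adjusted p = 2.74e-08, and -5.72, SE 0.55, adjusted p = 3.41e-06). It was also called higher in cluster 3, at 144 ± 55.4 CPM, against a log-scale mean that holds the low cluster 5. Between pairs, cluster 3 was called above clusters 1 and 5 and below clusters 4 and 7 (log2 -2.37, SE 0.41, adjusted p = 0.00211). Its pairs with clusters 2 and 6 were not called. Lypd6b stood highest in cluster 5, at 33.3 ± 8.68 CPM, and lowest in cluster 2, at 1.41 ± 1.88 CPM (log2 2.57, SE 0.55, adjusted p = 0.00628, and -3.19, SE 0.81, adjusted p = 0.0124). Its only called pairs set cluster 2 below clusters 3 and 5. Lypd1 was also the 1 gene of the list called by dissection level, higher at the posterior level by 1.71 (SE 0.17, adjusted p = 0.00906). That comparison pooled all classes, and 76 of the 78 cells of cluster 4, part of the class with the highest Lypd1 level, were posterior. The part of this unequal mix in the Lypd1 difference was not tested. The median size of the log2 differences was 0.33 for this group and 0.37 for all genes.

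Of 21 genes of muscarinic signalling, 20 were tested, with 8 higher and 4 lower calls in 120 tests, beside the 5.14% over all genes, and a median size of 0.42 against 0.37 for all genes. Rgs4, a regulator that shortens Gq and Gi signals, was at 1778 ± 274 CPM in cluster 2 and called higher there (log2 2.31, SE 0.23, adjusted p = 1.52e-06), and it was called lower in clusters 5 and 6, where it stood at 115 ± 68.7 and 175 ± 46.97 CPM. Rgs14, another regulator of Gi signals, was called higher in cluster 2 at 57.3 ± 20.4 CPM. Between pairs of classes, Rgs4 in cluster 2 differed from every class but cluster 3, and Rgs14 from clusters 3 and 6 and clusters 4 and 7. Plcb4, a phospholipase C driven by Gq, was called higher in cluster 1 at 127 ± 10.8 CPM. Its only called pairs set cluster 1 above clusters 3 and 5. Trpc5, a cation channel opened downstream of Gq, was called higher in clusters 1, 3, 5 and in clusters 4 and 7 at means of 23.1 to 29.0 CPM and called lower in cluster 6, where it had 0 counts. No pair among those higher classes was called for Trpc5, and its called pairs all include cluster 2, at 5.76 CPM, or cluster 6. Plcb2 was called higher in clusters 4 and 7 from 207 counts in all.

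In the sections, 16 of the 21 signalling genes were tested, with 4 higher and 4 lower calls in 144 tests, beside 2.07% over all genes, and a median size of 0.20 against 0.21 for all genes. Plcb4 was called higher in zone 1 (log2 1.08) and lower in zones 3 and 4, and Rgs4 and Kcnq3 were called higher in zone 9, led by Rspo1 and Rorb (log2 1.14 and 1.04). Rgs14 was called lower in zone 2 (log2 -1.26) and higher in zone 3 (1.05), and Kcnq5 lower in zone 3 (-1.53). Among the nicotinic chaperones and Ly6 proteins, 9 were tested, with 4 calls each way in 81 tests, beside the same 2.07%, and a median size of 0.23. Lypd1 was called higher in zone 3 (1.98) and lower in zone 5 (-1.42), Ly6h was called higher and Lynx1, Lypd6 and Lypd6b lower in zone 3, and Lypd6b higher in zones 4 and 5 (1.36 and 1.27). Of the other groups, 2 genes for synthesis, storage and breakdown and no other receptor subunit were tested, with 0 calls.

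For each receptor gene the 2 genes with the most similar level over the 18 class sums were found by Pearson correlation of log2 CPM, as a description over sums that share animals and classes, with genes that the clustering could use. Chrm2 was nearest to Orai2 (r = 0.958) and Nptx2 (0.948), Chrm1 to Igfn1 (0.927) and Chst1 (0.881), and Chrm4 to Cnr1 (0.925), which codes for a cannabinoid receptor, and Zdhhc12 (0.914). Chrna4 was nearest to Gabra5 (0.862), a GABA receptor subunit, and Rab26 (0.848), Chrnb2 to Dcbld2 (0.928) and Plscr3 (0.906), and Chrm3 to Fkbp1a (0.853) and Stard8 (0.834). The comparison ran over 8138 genes with a mean of at least 10 CPM, and 8139 for Chrm3.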

How the data were processed

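Counts of 765 neurons in 11 samples from 3 animals and of 1973 spots in 2 sections were used as deposited by the authors, as whole-number counts per gene. Seurat and NCBIM37 are named for the cells, and Seurat, Space Ranger, NCBIM37 and mm10 for the sections, per the submitters' processing notes. The aligner, and whether a count is a read or a molecule, are not given in the sources used here. The animal of each cell came from a deposited table, and its sample and dissection level from the column names. The libraries S4 and S8 were not matched to the section titles.

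Clusters of cells, and separately of spots, were found by scanpy 1.11.5 (counts scaled to 10000, log1p, 2000 variable genes, 30 components, 15 neighbours, Leiden resolution 1, seed 1) in Python 3.11.15, without the receptor and cholinergic genes, and spots after centring each gene within its section. Clusters were named from marker lists, and clusters 4 and 7, both led by all markers of 1 type, were joined. No doublet caller was run. Raw counts were summed per animal and class (at least 10 cells), per animal and level, and per section and zone (at least 10 spots), and the test was the quasi-likelihood F test of edgeR 4.0.16 (R 4.3.3), after its filterByExpr filter and TMM scaling, with the animal or section as a block and Benjamini-Hochberg adjustment. A call needs an adjusted p under 0.05 and a log2 fold change of at least 1. DESeq2 1.42.0 was an alternative. Others were other filters, scalings, cell minimums, clusterings and groupings, and leaving out each animal. Comparisons of every pair of classes were added after seeing the data. Steps were tested on simulated data.

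Classes come from the same animals, which is why the animal is a block. Correlations of the deviations of 2 classes from their means within an animal had medians of 0.124, 0.070 and 0.075 for animals 1, 2 and 3. Shares of cells were also given after thinning to 50000 counts, which left out 61 cells, and shares of spots after thinning to 3000, which left out 22. Intervals of shares are 95% exact binomial ones and, like intervals of count ratios and the limit of 3 counts for a count of 0, cover counting error only.

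All receptor genes are named wherever measured, with every called gene of the cholinergic list up to 12 per comparison by size, and the 2 genes most like each receptor gene. Some called genes and marker values are not reported here. Receptor genes and lists were chosen with earlier results of these data known.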

Additional observations from a re-analysis of the deposited data

Results flagged for a closer look

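Within a class, the values of the samples were checked for 1 sample far from the rest in 24 groups of 4 to 10 samples. Such a gap is given by chance in about 1 of 20 groups, and 4 groups had one. That rate does not hold where most samples are at or near 0, as for the genes of cluster 2 named below. There 1 count can make the whole gap, so the 4 groups cannot be set against that rate. In cluster 2, Chrm2 was at 0.292 CPM in sample 18, from 1 count in 12 cells, and at 0 in the other 7 samples. In the same cluster Chrm3 was at 5.84 CPM in sample 11, from 13 counts, with the next sample at 2.67 CPM, and Chrm4 was at 3.01 CPM in sample 13, from 8 counts, with the next at 1.35 CPM. In cluster 1, Chrna4 was at 20.01 CPM in sample 11, from 32 counts in 10 cells, with the next of the 9 samples at 8.27 CPM.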

How the results depend on the processing

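Receptor calls among classes numbered 12, and 7 with sums of at least 20 cells, 7 with cells grouped by marker score, 6 with sums per sample and the sample as replicate block, and 7 to 9 with 1 animal left out. In the grouping by marker score, 51 cells had their 2 highest type scores within 0.1 of each other. The fits with larger sums and with sums per sample hold fewer classes. Without the replicate block the count was 11, so the pairing by animal moved it little, and with DESeq2 it was 10. Genes called in at least 1 class numbered 2255, and 1447 to 1768 with 1 animal left out. The calls of Chrm2 in clusters 2, 3 and 5, Chrm4 in cluster 2, Chrna4 in clusters 1 and 6 and Chrna4 in zone 5 held in every alternative run for them. That of Chrm2 in cluster 3 is set against a mean that holds the classes with 1 and 3 counts, and cluster 3 lay below cluster 5.

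For posterior against anterior, 14 genes were called, 108 with DESeq2, 9 with the level adjusted for class, 1 without the replicate block and 1 to 10 with 1 animal left out. For medium against anterior, 1 gene was called, 12 with DESeq2, 0 with the level adjusted for class and 1 to 2 with 1 animal left out. Receptor calls were 0 in all of these. Receptor calls among zones numbered 5, and 2 with DESeq2, 2 at Leiden resolution 0.5, 3 without the replicate block and 9 with no fold minimum, which also moved the genes called among zones from 1287 to 3151. Leaving out 1 section leaves no residual degrees of freedom and was not run.

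Depth limits the shares. Thinned to 50000 counts, 26.8% of cells had Chrm4, 27.6% Chrna4 and 24.3% Chrnb2. Thinned to 3000 counts, 23.2% of spots had Chrm1, 2.10% Chrm2, 5.997% Chrm3, 0.0513% Chrm4, 6.15% Chrna4, 0.564% Chrna5, 0% Chrna7 and 5.84% Chrnb2. No result reversed its direction. The cause of each change was not tested.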

Other observations

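In cluster 3, Chrm2 and Chrna4 were counted in the same cell in 12 of 93 cells (12.9%), where the product of their shares is 4.62%. Chrna4 thus had a count in 12 of the 16 cells of that cluster with a Chrm2 count, and in 16.9% of those without. In cluster 9, 9 of 11 cells had both. These shares were seen after many pairs had been tabulated and were not tested.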
